A study of Mus musculus and Homo sapiens with 180 samples.

Results

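MV4;11 control cells treated with the DOT1L inhibitor SGC0946 were compared with the same cells given DMSO, the solvent of the drug. MV4;11 is a human acute myeloid leukaemia line that carries an MLL fusion. The comparison rests on 6 of the 180 samples of the series, 3 libraries with 5 µM SGC0946 for 72 h and 3 with DMSO for 72 h, which were chosen by their labels and column names and not by any measured value. All 6 are labelled control. Their columns carry the name Safe3, and per the methods control cells express Cas9 and a guide RNA aimed at a harmless site; whether Safe3 is a guide or a clone is not stated in the sources used here. The identifiers in the table are human Ensembl genes, although the organism field of these samples names mouse. The labels number the libraries 1 to 3 and do not say whether they came from separate cultures. A figure legend of the paper calls the replicates biological, without saying how they were made. The p-values measure only the spread between libraries of a group, estimated over all 18 MV4;11 libraries fitted and not over these 6 alone. How far that spread is technical was not tested. For comparison, 3 libraries of the same control cells with 500 nM VTP50469, a Menin inhibitor, for 48 h were used. PCGF1 KO MV4;11 cells had 3 libraries with DMSO and 3 with SGC0946, also at 5 µM for 72 h; a tag in their column names may mark a single clone, while the methods describe edited cells as polyclonal. Another human leukaemia line with an MLL fusion, MOLM13, had 3 control libraries with DMSO and 3 with SGC0946 at the same dose and time. Their columns carry the name NT, taken as a non-targeting control. The MOLM13 fit of 27 libraries also held control cells with VTP50469, and BCOR KO and PCGF1 KO cells with each of the 3 treatments. The MV4;11 fit of 18 libraries also held PCGF1 KO cells with VTP50469. All VTP50469 libraries of both lines had 500 nM for 48 h.

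DOT1L is the enzyme that methylates lysine 79 of histone H3 along transcribed genes. In leukaemias with an MLL fusion, the fusion protein brings DOT1L and elongation factors to genes of immature blood cells such as the HOXA genes, MEIS1 and MEF2C, and these genes keep the cells from maturing. Menin is the partner that tethers MLL proteins to chromatin. PRC1.1 is a Polycomb complex, built around PCGF1 and BCOR, that places ubiquitin on histone H2A at CpG-rich promoters.

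Each library held 4104648 to 4792045 reads counted on genes, from which 14832 to 15395 genes were detected with DMSO and 16477 to 16881 with SGC0946. The share of reads that named no gene was 21.4% to 22% with DMSO and 23.4% to 26.9% with SGC0946, and its part in the results below was not tested. Reads come from the 3′ end of transcripts, so levels are given in CPM, which brings the counts of each library to a common total, and not per length. A pair of non-coding rows and 2 mitochondrial ribosomal RNAs held 42.8% to 47.9% of counts with DMSO and 37.3% to 46.4% with SGC0946, which is why libraries were scaled by TMM, a method that rests on the bulk of genes. Where no read was counted, the upper limit is 3 counts, or 0.574 to 0.737 CPM in these libraries; this limit covers counting error only. As the strand setting of the counting is not stated, reads of overlapping genes cannot be told apart. Of the genes named below this touches ATF5, SLC1A5, SREBF1, FADS2, CFD, DTX4, FGL2, DOT1L, HLA-DMA, SATB1, FLT3, ZEB2, FDFT1, MCM7, CSF1R, ITGAL and ANXA2R, besides those pointed out in place. Of 10 markers of a myeloid leukaemia line 8 passed the filter of at least 2 CPM in at least 2 libraries, with a summed level of 283.9 to 301.3 CPM with DMSO and 279.5 to 302.3 CPM with SGC0946. Markers of other cells were low. Of 15 lymphoid markers 3 passed the filter, with a sum of 9.81 to 12.7 CPM and 10.5 to 18.2 CPM, and CD3D, CD3E and CD2 had no count in the 6 libraries. Of 17 erythroid and megakaryocyte markers 1 passed, with HBB and GATA1 at 0, and of 12 non-blood markers 1 passed, with EPCAM and ALB at 0.

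SGC0946 changed 1373 of 11252 genes tested at an adjusted p under 0.05 (edgeR's quasi-likelihood test; every adjusted p below is from it unless said otherwise). It raised 722 genes, or 6.42% of those tested, and lowered 651, or 5.79%. Together the called genes were 12.2% of those tested, the share beside which counts of called list members are to be read. The rises were larger than the falls and lay at genes of lower level. Genes under 2 CPM in all control DMSO libraries passed the filter only through other libraries, which left them little room to be called lower. The median log2 fold change was 0.92 over the raised genes and −0.48 over the lowered ones, with 324 rises and 38 falls beyond 2-fold and 109 rises and 4 falls beyond 4-fold. The median DMSO level was 7.95 CPM for raised genes and 74 CPM for lowered ones, against 12.7 CPM for all genes tested. All 3 SGC0946 libraries lay above all 3 DMSO libraries for 1884 genes (16.7%) and below them for 1836 (16.3%). Groups lay apart in this way for 714 of the 722 raised and 645 of the 651 lowered genes. A lack of overlap given below for a called gene therefore adds little to its call. With scaling by library size alone the median of all genes moved from 0.01 to 0.12 and the calls became 604 higher and 113 lower, so the falls given below are falls relative to the bulk of genes. With the limits of the methods, an adjusted p under 0.1 and a log2 fold change beyond 0.5, the calls were 774 higher and 366 lower. Leaving out a library lowered the count of 1373, to 819 for SGC0946 replicate 1, to 875 for SGC0946 replicate 2 and to 913 for DMSO replicate 2.

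Genes bound or driven by MLL fusions were one of the groups with many falls. Of 43 such genes 35 were tested, and 17 fell, 3 rose and 15 did not pass the test, with a median log2 fold change of −0.54 against 0.01 over all genes. Without 1 library 14 to 16 fell, and with scaling by library size 13. Some of these genes were named by the study, so their count is not independent evidence of a fall. MEF2C, a transcription factor of myeloid and lymphoid progenitors (chromosome 5, 88717117 to 88904257, GRCh38), had the largest fall among them, at 141, 142 and 136 CPM in the DMSO libraries and 51.6, 47.3 and 47.7 CPM in the SGC0946 libraries (log2 change −1.52, SE 0.13, adjusted p = 1.03e-09). EMB, an immunoglobulin-superfamily surface protein, read 126, 117 and 123.46 CPM in the DMSO libraries and 51.6, 66 and 55.9 CPM in the SGC0946 libraries (log2 change −1.07, SE 0.12, adjusted p = 1.14e-07). SATB1, a chromatin organizer, read 179, 158 and 172 CPM in the DMSO libraries and 89.5, 107 and 85.6 CPM in the SGC0946 libraries (log2 change −0.85, SE 0.10, adjusted p = 2.56e-07). The groups did not overlap for any of these 3 genes. Further falls were those of ELF1 (−0.85, adjusted p = 2.45e-07), the receptor tyrosine kinase FLT3 (−0.90, adjusted p = 3.76e-07), FOXP1 (−0.58, adjusted p = 0.000255) and the cell-cycle kinase CDK6 (−0.66, adjusted p = 3.23e-06). CDK6 is overlapped on the other strand by CDK6-AS1, which read 9.61, 10.6 and 11.1 CPM in the DMSO libraries and 2.84, 4.21 and 3.11 CPM in the SGC0946 libraries (log2 change −1.60, SE 0.28, adjusted p = 0.00022), and without a stated strand setting reads of the pair cannot be told apart. The same holds for JMJD1C (−0.55, adjusted p = 0.000325), whose start overlaps that of REEP3, which read 68.3, 80.1 and 76.4 CPM in the DMSO libraries and 31.5, 28.3 and 29.5 CPM in the SGC0946 libraries (log2 change −1.33, SE 0.12, adjusted p = 1.98e-09). With scaling by library size alone the adjusted p of JMJD1C was 0.0504. The 3 genes that rose were PTPRC, which encodes the leukocyte antigen CD45 (0.68, adjusted p = 0.000149), the mannosidase MAN1A1 (1.57, adjusted p = 0.000255) and SSBP2 (1.79, adjusted p = 0.00222). SOCS2 (−0.19, adjusted p = 0.695), MSI2 (0.34, adjusted p = 0.156), LPXN (0.25, adjusted p = 0.202), ZEB2 (−0.19, adjusted p = 0.223) and TSC22D2 (0.01, adjusted p = 0.994), which the study also names, did not pass the test.

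The HOXA genes encode homeodomain factors of immature blood cells and act with TALE homeodomain partners of the MEIS and PBX families. Of the 11 HOXA genes 4 were tested and 3 fell. HOXA9, HOXA10, HOXA11, MEIS1 and PBX3 are also among the 17 fusion targets that fell, so these counts overlap. HOXA10 (chromosome 7, 27170605 to 27180261) read 46.6, 53.5 and 56.2 CPM in the DMSO libraries and 22.5, 27.4 and 21.5 CPM in the SGC0946 libraries (log2 change −1.12, SE 0.15, adjusted p = 3.74e-06). HOXA11 read 38.83, 33.6 and 39.9 CPM in the DMSO libraries and 19.2, 17.6 and 16.9 CPM in the SGC0946 libraries (log2 change −1.07, SE 0.15, adjusted p = 8.71e-06). HOXA9 read 19.2, 14 and 17.4 CPM in the DMSO libraries and 10.9, 11.3 and 8.21 CPM in the SGC0946 libraries (log2 change −0.74, SE 0.18, adjusted p = 0.00628), and its adjusted p was 0.0505 without DMSO replicate 1 and 0.0507 without SGC0946 replicate 3. The SGC0946 libraries of each lay below all DMSO libraries. HOXA13, at 1.84, 1.47 and 1.11 CPM and 3.31, 3.83 and 2.44 CPM, did not pass the test (adjusted p = 0.128). HOXA9 and HOXA10 overlap on the same strand, all 3 genes that fell overlap an antisense gene, and the other 7 HOXA genes did not pass the filter. Of the TALE partners 5 of 9 were tested. PBX3 read 70.5, 49.1 and 59.3 CPM in the DMSO libraries and 30.5, 24.1 and 28.2 CPM in the SGC0946 libraries (log2 change −1.12, SE 0.15, adjusted p = 4.15e-06). MEIS1 (chromosome 2, 66433452 to 66573869) read 22.7, 25.3 and 24.1 CPM in the DMSO libraries and 17.8, 15.9 and 11.1 CPM in the SGC0946 libraries (log2 change −0.69, SE 0.17, adjusted p = 0.0059). The SGC0946 library with the lowest MEIS1 level was replicate 3, and without it the adjusted p was 0.0628; with scaling by library size it was 0.0932. PKNOX1 also passed (−0.62, adjusted p = 0.0208) but missed the threshold in 5 of the 6 fits without 1 library, with adjusted p of 0.0626 to 0.0735, and passed only without DMSO replicate 1. The 3 TALE falls thus became 1 without SGC0946 replicate 3. MEIS2 (0.16, adjusted p = 0.682) and PBX2 (−0.10, adjusted p = 0.845) did not pass.

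The transcript of the inhibited enzyme itself was slightly lower. DOT1L (chromosome 19, 2163933 to 2232578) read 58.7, 69.3 and 59.1 CPM in the DMSO libraries and 46.2, 50.5 and 47.2 CPM in the SGC0946 libraries (log2 change −0.37, SE 0.11, adjusted p = 0.0272). The call was lost without DMSO replicate 2 (adjusted p = 0.156) and without SGC0946 replicates 1, 2 and 3 (0.11, 0.0529 and 0.084), and with scaling by library size (0.327). Of 14 tested genes of the DOT1L and elongation complexes 4 rose, among them KMT2A, the gene of MLL itself (0.42, adjusted p = 0.00786), and AFF3, a scaffold of elongation complexes (0.49, adjusted p = 0.0141). KMT2A missed the threshold without SGC0946 replicate 1 (0.0695), and AFF3 without DMSO replicates 1 and 3 (0.0863 and 0.0787) and without SGC0946 replicate 3 (0.0895). The count of 4 rises became 2 when any 1 DMSO library was left out and 1 without SGC0946 replicate 1 or 3. All 11 PRC1.1 subunits were tested, and 18.2% of them were called, against 12.2% of all genes tested. These calls were falls, and 5.79% of all genes tested were called lower. All 3 SGC0946 libraries lay below all 3 DMSO libraries for 6 of the 11, against 16.3% of all genes, and above them for 0. PCGF1 read 4.9, 3.68 and 7.35 CPM in the DMSO libraries and 3.55, 7.66 and 5.32 CPM in the SGC0946 libraries (log2 change 0.07, SE 0.36, adjusted p = 0.94), and its groups overlapped. BCOR read 38.6, 43.2 and 36.8 CPM in the DMSO libraries and 27.5, 27.8 and 28.6 CPM in the SGC0946 libraries (log2 change −0.50, SE 0.14, adjusted p = 0.0196) and the ubiquitin protease USP7 had a log2 fold change of −0.44, adjusted p = 0.0017; these were the 2 subunits that fell. BCOR missed the threshold without DMSO replicate 2 (0.0941) and without SGC0946 replicates 1 and 2 (0.0692 and 0.0701), and with scaling by library size BCOR was at 0.14 and USP7 at 0.12. Of 16 tested genes of PRC2 and canonical PRC1, EZH1 rose (0.59, adjusted p = 0.00908) and EZH2, the other catalytic subunit of PRC2, fell (−0.41, adjusted p = 0.0103). These calls are 12.5% of that list, near the 12.2% called over all genes tested. EZH2 was at 0.0776 without DMSO replicate 2.

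**Figure D1:**
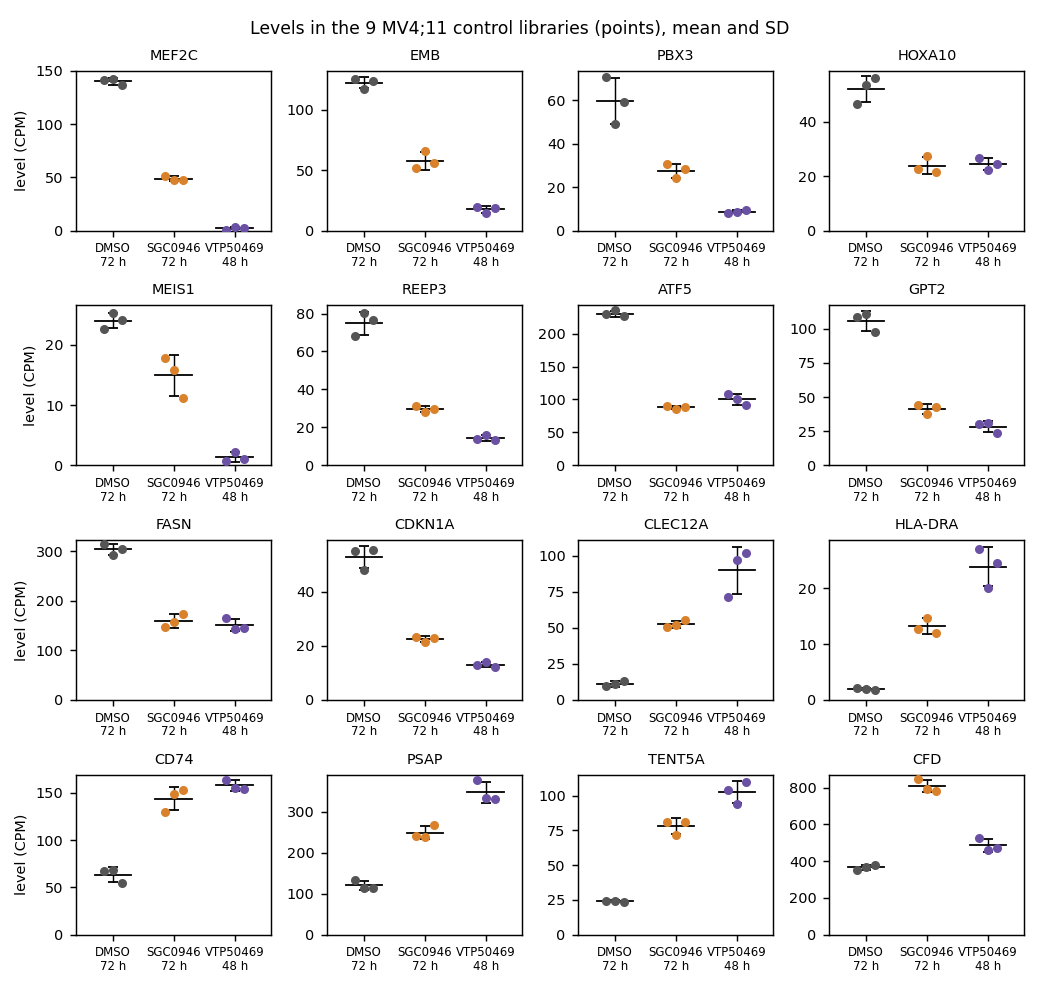
Levels of 16 genes in CPM (y axes, from 0) in the 9 MV4;11 control libraries, 3 each with DMSO for 72 h, SGC0946 for 72 h and VTP50469 for 48 h; points are libraries, horizontal bars means and error bars SD. For each gene the 3 SGC0946 points lie apart from the 3 DMSO points, and for MEF2C, EMB, PBX3 and MEIS1 the VTP50469 points lie lower still.

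Genes of the amino acid response were another group with many falls. ATF4 is a transcription factor that cells make when amino acids run short, and its targets import amino acids, synthesize serine and asparagine, and load transfer RNAs. Of 23 such genes 22 were tested, and 12 fell and 1 rose, with a median log2 fold change of −0.46. The summed level of the list was 1194 to 1285 CPM with DMSO and 736.5 to 778.7 CPM with SGC0946. ATF5, a relative of ATF4 (chromosome 19, 49928702 to 49933935), read 229.5, 236 and 227 CPM in the DMSO libraries and 89.7, 86 and 88.1 CPM in the SGC0946 libraries (log2 change −1.39, SE 0.11, adjusted p = 1.06e-10) and had the smallest p of all lowered genes of at least 50 CPM. GPT2, a mitochondrial alanine transaminase (chromosome 16, 46884362 to 46931289), read 109, 111 and 97.6 CPM in the DMSO libraries and 44, 37.3 and 43 CPM in the SGC0946 libraries (log2 change −1.35, SE 0.12, adjusted p = 1.14e-09). In both genes every SGC0946 library lay far below the lowest DMSO library. The serine synthesis enzymes PSAT1 and PHGDH fell by 1.32 and 0.96 on the log2 scale (adjusted p = 9.66e-06 and 9.05e-05). The amino acid transporters SLC7A5 (−0.99, adjusted p = 2.71e-07) and SLC1A5 (−0.82, adjusted p = 4.2e-06) fell as well. ATF4 itself, whose protein is set mainly by translation, had a log2 fold change of −0.56, adjusted p = 0.00122. The cystine transporter SLC7A11 went the other way (0.78, adjusted p = 0.000444), and DDIT3 (−0.08, adjusted p = 0.929) and TRIB3 (−0.35, adjusted p = 0.417) did not pass the test. In the fits without 1 library 8 to 11 of these genes fell, and with scaling by library size 9.

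ATF4 binds a C/EBP-ATF response element, searched here on both strands as TGATGNAA in the window from 250 bases before to 50 after the start of each gene's canonical transcript. The letters were found in 1.68% of all 10953 windows and in 4 of the 22 of this list (18.2%), those of ASNS, CHAC1, SLC7A11 and ATF3. A stretch of 120 bases of the window is shown for the 2 of these genes that fell, asparagine synthetase (ASNS) and the glutathione-degrading enzyme CHAC1, with the element in capitals; in CHAC1 it lies on the other strand. A match describes the letters and does not show binding.
ASNS (chr7:97872413-97872532, minus strand): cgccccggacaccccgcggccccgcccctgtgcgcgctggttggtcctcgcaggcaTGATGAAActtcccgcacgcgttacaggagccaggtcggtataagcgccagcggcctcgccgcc
CHAC1 (chr15:40953221-40953340, plus strand): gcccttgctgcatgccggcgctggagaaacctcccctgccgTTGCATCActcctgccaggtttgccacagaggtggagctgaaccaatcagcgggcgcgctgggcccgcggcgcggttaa
ASNS read 32.3, 33.4 and 26.7 CPM in the DMSO libraries and 20.8, 15.9 and 17.5 CPM in the SGC0946 libraries (log2 change −0.77, SE 0.15, adjusted p = 0.000797). CHAC1 was low, at 2.66, 3.68 and 4.68 CPM and 0.237, 0.766 and 1.77 CPM (log2 change −1.94, SE 0.54, adjusted p = 0.0149). The groups overlapped in neither gene, whereas SLC7A11, which holds the same element, rose and ATF3 did not pass the test (0.35, adjusted p = 0.77).

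Genes that make cholesterol and fatty acids fell in part. They are driven by SREBF1 and SREBF2, transcription factors that are released when membrane sterol is low. Of 25 genes 22 were tested, and 11 fell and none rose, with a median log2 fold change of −0.47. SREBF1 (chromosome 17, 17810399 to 17837002) read 15.3, 10.8 and 14.7 CPM in the DMSO libraries and 4.97, 5.74 and 4.44 CPM in the SGC0946 libraries (log2 change −1.43, SE 0.27, adjusted p = 0.000387). Fatty acid synthase, FASN (chromosome 17, 82078338 to 82098294), read 313, 293 and 304 CPM in the DMSO libraries and 147, 157 and 174 CPM in the SGC0946 libraries (log2 change −0.93, SE 0.09, adjusted p = 8.75e-09). The desaturase FADS2 read 30.7, 24.1 and 33.6 CPM in the DMSO libraries and 13, 14 and 14.2 CPM in the SGC0946 libraries (log2 change −1.102, SE 0.20, adjusted p = 0.000228). None of the 3 genes had overlapping groups. FDFT1, the first enzyme committed to sterols (−0.42, adjusted p = 0.00173), and ACLY, which supplies acetyl-CoA (−0.54, adjusted p = 0.00175), fell too. SQLE, an enzyme of sterol synthesis, did not pass (−0.26, adjusted p = 0.195). The count of 11 became 7 without DMSO replicate 1 and 4 with scaling by library size, where FDFT1 and ACLY had adjusted p of 0.173 and 0.12.

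SREBF proteins bind the sterol regulatory element together with NF-Y, which binds CCAAT. The letters TCACNCCAC were found on either strand in 1.06% of all windows and in 3 of the 22 of this list (13.6%), all of which fell. CCAAT was found in 36.9% of all windows and in 81.8% of this list, but in 72.7% of its 11 lowered members. High shares were not particular to this list, at 87.5% for mitosis genes and 73.1% for replication genes. A stretch of SREBF2 is shown because both motifs occur within the same 120 bases; capitals mark the sterol element and CCAAT, read as ATTGG since it lies on the other strand.
SREBF2 (chr22:41832928-41833047, plus strand): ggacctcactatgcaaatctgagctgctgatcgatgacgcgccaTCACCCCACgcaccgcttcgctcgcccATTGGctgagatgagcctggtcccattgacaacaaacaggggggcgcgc
SREBF2 read 51.5, 49.4 and 40.6 CPM in the DMSO libraries and 34.3, 31.4 and 34.8 CPM in the SGC0946 libraries (log2 change −0.49, SE 0.13, adjusted p = 0.0116), and its groups did not overlap.

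Among genes of cell division 15.4% of tested replication genes and 12.5% of mitosis genes were called, against 12.2% of all genes. All of these calls were falls, and 5.79% of all genes were called lower. All 3 SGC0946 libraries lay below all 3 DMSO libraries for 10 replication and 9 mitosis genes, against 16.3% of all genes. They lay above them for 1 and 2, against 16.7%. Of 26 tested genes of DNA replication 4 fell and none rose (median −0.23), among them the helicase subunit MCM7 (−0.34, adjusted p = 0.00807) and the licensing factor CDC6 (−0.44, adjusted p = 0.017). Without 1 library 1 to 3 of these fell (1 without SGC0946 replicate 1 or 3, 2 without DMSO replicate 3 or SGC0946 replicate 2), and with scaling by library size none did. MCM7 was at 0.0584 without SGC0946 replicate 1, and CDC6 at 0.0992, 0.0736 and 0.055 without DMSO replicate 2 and SGC0946 replicates 2 and 3. Of 24 genes of mitosis 3 fell, a count that was 0 without DMSO replicate 2 and 1 without SGC0946 replicate 1 or 2. Of 19 genes of MYC and ribosome biogenesis 3 fell, of which 1 did without DMSO replicate 1, DMSO replicate 2 or SGC0946 replicate 3, and 0 without any of the others; with scaling by library size none of the mitosis or MYC genes was called. The 44 cytosolic ribosomal protein genes lay mostly above 0, with 14 higher, none lower and a median of 0.25. RPL34 had the smallest p of them, at 208, 193 and 197 CPM in the DMSO libraries and 294, 279 and 268 CPM in the SGC0946 libraries (log2 change 0.49, SE 0.09, adjusted p = 0.000216). Of the 44, 8, 6 and 7 were called without DMSO replicates 1, 2 and 3, 7 without SGC0946 replicate 1 and 9 without SGC0946 replicate 3, and with scaling by library size 5 were. These genes have many near-identical pseudogenes among which reads can be split. CDKN1A, an inhibitor of cyclin-dependent kinases (chromosome 6, 36676460 to 36687337), was lower, at 55, 48.1 and 55.5 CPM in the DMSO libraries and 23.4, 21.4 and 23.1 CPM in the SGC0946 libraries (log2 change −1.23, SE 0.13, adjusted p = 3.17e-08). Cyclin D3 fell (CCND3, −0.79, adjusted p = 6.54e-05) and cyclin D2 rose (CCND2, 0.72, adjusted p = 0.0147), the latter with adjusted p of 0.127 without DMSO replicate 3 and 0.108 without SGC0946 replicate 2.

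Of 35 markers of maturing monocytes 21 were tested, and 13 rose, none fell and 8 did not pass the test, with a median log2 fold change of 0.90. Markers under 2 CPM with DMSO, such as CYBB below, passed the filter only through libraries where they were higher. The absence of falls and the median are therefore partly set by the filter. In the fits without 1 library 11 or 12 rose. The levels stayed far from those of the abundant genes of the cell, with a summed level of 501.6 to 504.6 CPM with DMSO and 634.4 to 638.6 CPM with SGC0946, and the mature monocyte genes FCN1, S100A12 and CD163 had no count in the 6 libraries. CLEC12A, an inhibitory lectin receptor of myeloid cells (chromosome 12, 9951316 to 9995694), read 9.4, 10.8 and 13.4 CPM in the DMSO libraries and 50.4, 51.7 and 55.2 CPM in the SGC0946 libraries (log2 change 2.23, SE 0.15, adjusted p = 3.1e-11) and had the smallest p of the list. Its neighbour CLEC1B, which overlaps it on the other strand, read 0.818, 1.23 and 1.56 CPM in the DMSO libraries and 8.05, 7.66 and 7.32 CPM in the SGC0946 libraries (log2 change 2.66, SE 0.43, adjusted p = 6.55e-05), and reads of the pair cannot be told apart without a stated strand setting. S100A8, a calcium-binding alarmin, read 5.72, 1.96 and 3.79 CPM in the DMSO libraries and 16.3, 15.1 and 12.4 CPM in the SGC0946 libraries (log2 change 1.89, SE 0.27, adjusted p = 9.61e-06). CYBB, the catalytic subunit of the phagocyte oxidase, read 1.02, 1.23 and 1.78 CPM in the DMSO libraries and 7.1, 7.66 and 4.66 CPM in the SGC0946 libraries (log2 change 2.26, SE 0.34, adjusted p = 2.64e-05). The scavenger receptor CD36 read 16.8, 20.6 and 22.1 CPM in the DMSO libraries and 33.1, 44.2 and 32.8 CPM in the SGC0946 libraries (log2 change 0.90, SE 0.16, adjusted p = 0.00018). Every SGC0946 library was above every DMSO library for each of these genes. The lipopolysaccharide receptor TLR4 (1.54, adjusted p = 0.000288), lysozyme (LYZ, 1.96, adjusted p = 0.000355), the receptor for macrophage growth factor CSF1R (1.11, adjusted p = 0.00234) and the chemokine receptor CCR2 (0.60, adjusted p = 0.00368) rose too.

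Granule genes, which mark the granulocyte branch, rose in part. Of 11 tested primary granule genes 3 rose and 1 fell, and the raised genes include LYZ, already counted among the monocyte markers. CFD, complement factor D (chromosome 19, 859453 to 867884), read 352, 366 and 379 CPM in the DMSO libraries and 847, 793 and 785 CPM in the SGC0946 libraries (log2 change 1.15, SE 0.09, adjusted p = 3.33e-10). The protease CTSG read 186, 219 and 213 CPM in the DMSO libraries and 372, 380.2 and 397 CPM in the SGC0946 libraries (log2 change 0.89, SE 0.09, adjusted p = 2.49e-08). Myeloperoxidase, the defining enzyme of these granules, did not pass (MPO, 0.37, adjusted p = 0.216), and the granule proteoglycan SRGN fell (−0.42, adjusted p = 0.00369; 0.262 with scaling by library size). Of 22 genes of secondary and tertiary granules 6 were tested and 4 rose, among them CHI3L1, which read 319.6, 319.7 and 285 CPM in the DMSO libraries and 476, 496 and 577 CPM in the SGC0946 libraries (log2 change 0.75, SE 0.09, adjusted p = 4.22e-07), and the receptor for granulocyte growth factor CSF3R (1.05, adjusted p = 0.000165). LTF, CEACAM8 and OLFM4, which define mature granules, had no count in the 6 libraries. In these bulk libraries more cells of a type and more RNA per cell cannot be told apart.

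MHC class II genes, whose products present peptides to helper T cells, had the largest median of the lists. Of 13 genes 6 were tested, and 5 rose and none fell, with a median log2 fold change of 1.64. HLA-DRA, the shared alpha chain of HLA-DR (chromosome 6, 32439878 to 32445046), read 2.04, 1.96 and 1.78 CPM in the DMSO libraries and 12.8, 14.7 and 12 CPM in the SGC0946 libraries (log2 change 2.76, SE 0.25, adjusted p = 3.25e-09). CD74, the invariant chain that guides class II molecules, read 67.4, 68.3 and 54.2 CPM in the DMSO libraries and 129.98, 148 and 153 CPM in the SGC0946 libraries (log2 change 1.19, SE 0.11, adjusted p = 3.08e-09). HLA-DRB1 read 4.09, 5.65 and 4.46 CPM in the DMSO libraries and 15.9, 15.3 and 25.5 CPM in the SGC0946 libraries (log2 change 1.999, SE 0.22, adjusted p = 1.27e-07); it has near-identical relatives, so its counts are uncertain. In all 3 genes the SGC0946 libraries lay well above the DMSO libraries. HLA-DMA, which loads peptides, had 1 count in the DMSO libraries and 22 in the SGC0946 libraries, a ratio of 21.2 (95% counting interval 3.43 to 875). HLA-DMA passed the filter only through libraries other than control DMSO. HLA-DRA, and CIITA below, reached 2 CPM in only 1 control DMSO library each, so they too needed other libraries to pass. The count of rises and the median of this list are therefore partly set by the filter. The class II transactivator CIITA read 1.23, 3.44 and 1.34 CPM in the DMSO libraries and 4.02, 5.74 and 3.77 CPM in the SGC0946 libraries (log2 change 1.22, SE 0.38, adjusted p = 0.0304). The call of CIITA was lost without DMSO replicates 1 and 3 (0.161 and 0.141) and without SGC0946 replicates 1 and 2 (0.0513 and 0.161). HLA-DQB1 and HLA-DPB1 had 0 counts with DMSO and 11 and 7 with SGC0946, under the filter. MHC class I genes, which present peptides to cytotoxic T cells, had 5 of 13 members higher, none lower and a median of 0.53. HLA-C (0.84, adjusted p = 2.69e-06), HLA-B (0.60, adjusted p = 8.19e-05) and their shared light chain B2M (0.53, adjusted p = 0.00189) were among them, and the HLA genes again share sequence. Of 14 interferon-stimulated genes 3 rose, among them IFI6 (1.22, adjusted p = 7.37e-05) and MX2 (1.35, adjusted p = 0.0011), while ISG15 was at 2.86, 8.1 and 6.02 CPM and 3.08, 4.21 and 2.44 CPM and did not pass (−0.76, adjusted p = 0.148).

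Class II promoters are known for conserved boxes, among them a CCAAT box, to which a complex with CIITA is recruited. CCAAT was found on either strand in 66.7% of the windows of the 6 tested class II genes, against 36.9% of all windows. The share was 69.2% for class I genes and 87.5% for mitosis genes, of which 12.5% were called. A stretch of CD74, the class II list member with the smallest p, is shown with CCAAT in capitals.
CD74 (chr5:150412911-150413030, minus strand): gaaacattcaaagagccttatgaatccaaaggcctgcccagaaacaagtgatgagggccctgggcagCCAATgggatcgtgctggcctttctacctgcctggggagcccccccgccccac
HLA-DRA rose by 2.76 and CD74 by 1.19 on the log2 scale, from mean DMSO levels of 1.93 and 63.3 CPM.

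Lysosomal genes rose in part. Of 27 tested 9 rose and none fell (median 0.29), and the count became 5 without DMSO replicate 3. PSAP, the precursor of the saposins that help degrade lipids (chromosome 10, 71816298 to 71851251), read 133, 114 and 113 CPM in the DMSO libraries and 242, 239 and 267 CPM in the SGC0946 libraries (log2 change 1.05, SE 0.10, adjusted p = 3.25e-09). The cysteine protease CTSS (0.66, adjusted p = 0.000446), also counted among the monocyte markers, and acid glucosidase GAA (0.89, adjusted p = 0.000827) rose too. DNASE2, the nuclease of lysosomes, read 6.34, 6.14 and 4.01 CPM in the DMSO libraries and 23.2, 27.9 and 25.7 CPM in the SGC0946 libraries (log2 change 2.22, SE 0.20, adjusted p = 1.69e-09). Outside these lists, the 12 largest rises among genes of at least 10 CPM were headed by CD84, a receptor of the SLAM family (chromosome 1, 160541095 to 160579516), which read 0.409, 1.72 and 1.11 CPM in the DMSO libraries and 11.8, 12.1 and 11.3 CPM in the SGC0946 libraries (log2 change 3.46, SE 0.38, adjusted p = 1.14e-07). RNA5SP202, a 5S ribosomal RNA pseudogene with many near-identical copies, read 4.29, 2.46 and 3.12 CPM in the DMSO libraries and 21.1, 23.9 and 22.2 CPM in the SGC0946 libraries (log2 change 2.74, SE 0.30, adjusted p = 1.02e-07), so its reads may belong to other copies. DTX4, a Notch pathway ubiquitin ligase, read 2.45, 1.72 and 2.01 CPM in the DMSO libraries and 11.6, 11.1 and 9.98 CPM in the SGC0946 libraries (log2 change 2.37, SE 0.23, adjusted p = 8.75e-09). ENHO, which encodes the peptide adropin (2.41, adjusted p = 3.74e-06), RRAGD, a GTPase that links amino acids and lysosomes to mTORC1 (2.16, adjusted p = 2.69e-06), FGL2 (2.02, adjusted p = 4.91e-06) and the gelatinase MMP2 (2.07, adjusted p = 1.27e-07) were the others not yet named. At higher levels the smallest p-values were those of TENT5A, a poly(A) polymerase (chromosome 6, 81491439 to 81752774), which read 24.5, 24.1 and 23.2 CPM in the DMSO libraries and 81.4, 71.4 and 81.2 CPM in the SGC0946 libraries (log2 change 1.70, SE 0.12, adjusted p = 4.78e-11), and of BTG1, an anti-proliferative factor, which read 55.2, 51.8 and 45.5 CPM in the DMSO libraries and 125, 122 and 127 CPM in the SGC0946 libraries (log2 change 1.29, SE 0.10, adjusted p = 1.99e-10). SAMHD1, which hydrolyses deoxynucleotides (1.25, adjusted p = 1.67e-09), and TNFSF13B, the cytokine BAFF (1.19, adjusted p = 3.25e-09), rose similarly. Each of these genes had 3 SGC0946 libraries above the 3 DMSO libraries, which was a condition for being among the 12 largest rises.

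Falls outside the lists included BBX, an HMG-box protein, which read 224, 227 and 233 CPM in the DMSO libraries and 119, 114 and 116 CPM in the SGC0946 libraries (log2 change −0.97, SE 0.09, adjusted p = 1.69e-09). TNF, the inflammatory cytokine, read 12.7, 18.2 and 20.3 CPM in the DMSO libraries and 6.87, 6.89 and 5.99 CPM in the SGC0946 libraries (log2 change −1.36, SE 0.21, adjusted p = 2.76e-05). The kinesin KIF21B fell as well (−1.24, adjusted p = 0.000816). None of these 3 genes had overlapping groups. Transcription factors of the myeloid lineage had no common direction, with 3 of 21 higher and 2 lower; the 2 falls became 1 without DMSO replicate 2 or 3, and the median of this list changes sign with scaling by library size (−0.02 and 0.08). JUN, of the AP-1 family, read 10.8, 12.3 and 8.47 CPM in the DMSO libraries and 26.8, 27.8 and 32.4 CPM in the SGC0946 libraries (log2 change 1.46, SE 0.17, adjusted p = 4.88e-07). TCF4, an E-protein, read 31.5, 24.3 and 34.3 CPM in the DMSO libraries and 60.4, 59.7 and 69.4 CPM in the SGC0946 libraries (log2 change 1.07, SE 0.12, adjusted p = 1.18e-07). EGR1, an immediate early gene, read 7.36, 10.3 and 6.69 CPM in the DMSO libraries and 2.84, 2.49 and 1.33 CPM in the SGC0946 libraries (log2 change −1.85, SE 0.33, adjusted p = 0.00025). The other lists were mixed. Calls covered 18.8% of tested apoptosis regulators, 16.7% of chemokine genes and receptors and 6.67% of cytokine feedback genes, against 12.2% of all genes tested. Of 10 tested genes of stem and progenitor cells, SATB1, FLT3 and CDK6 fell and CD44 rose (1.35, adjusted p = 0.000693), while CD34 had no count. SATB1, FLT3 and CDK6 were already counted among the fusion targets. Of 16 integrin and adhesion genes 4 rose and 4 fell (2 without SGC0946 replicate 1), among them ITGAL, an integrin of leukocytes (−0.69, adjusted p = 9.66e-06), which fell, and its ligand ICAM3 (1.83, adjusted p = 4.52e-06), which rose. Of 16 apoptosis regulators BMF (1.34, adjusted p = 0.000366) and BIK (0.64, adjusted p = 0.0047), which promote cell death, rose, and BCL2 fell (−0.34, adjusted p = 0.0451); the call of BCL2 was lost in each of the 6 fits without 1 library, with adjusted p from 0.0566 without DMSO replicate 1 to 0.18 without DMSO replicate 2. Of 15 genes of cytokine feedback 1 fell, which it did not without SGC0946 replicate 2, and none rose. Of 6 chemokine genes and receptors CCR2 alone was called, and of 7 S100 genes S100A8 and S100A9 rose and S100A11 fell; S100A9 missed the threshold without DMSO replicates 2 and 3 and SGC0946 replicates 1 and 3 (0.132, 0.0682, 0.159 and 0.0938), and S100A11 without any 1 of the 6 libraries (0.052 to 0.18).

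Raised and lowered genes differed in the CpG content of their promoter windows, given here as a description. A window counted as CpG-rich with at least 55% G and C and an observed to expected CpG ratio of at least 0.65. That held for 75% of the windows of all genes tested, 84.4% for lowered genes and 63.6% for raised genes, with median CpG counts of 27, 30 and 25 in 300 bases. The 13 raised monocyte markers had a median of 2 CpG and no CpG-rich window, and all 21 tested markers likewise had a median of 2, with 4.76% of windows CpG-rich. The 6 tested class II genes had a median of 3 CpG. Lowered MLL fusion targets had a median of 32 CpG and 82.4% of CpG-rich windows, and all 35 tested targets a median of 32 and 74.3%. These values are therefore those of the lists and do not set their raised or lowered members apart. Raised genes also lay beside each other in the genome more often than genes in general. Of raised genes with a position 21.3% had a raised gene as the adjacent tested gene, against 12.3% of all genes tested, and of lowered genes 14.6% had a lowered neighbour, against 11.3%. Neighbours that overlap can share reads.

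How the DOT1L inhibitor compared with the Menin inhibitor was tested as a contrast of both drugs within the model of all 18 libraries, which share 1 estimate of the spread. The times differ, 72 h for SGC0946 and 48 h for VTP50469. SGC0946 was higher than VTP50469 for 303 genes (2.69%) and lower for 281 (2.5%). The VTP50469 libraries had TMM scaling factors of 0.6251 to 0.813, against 0.968 to 1.146 with SGC0946, and with scaling by library size alone the calls became 5235 higher and 97 lower, with the median of all genes at 0.53. On the first 2 principal components, the SGC0946 libraries lay between DMSO and VTP50469 on the first, which held 41.5% of the variance, and apart from both on the second, which held 14.7%. Among MLL fusion targets 10 of 35 were higher with SGC0946 and none lower. MEF2C was at 0.9, 3.34 and 2.76 CPM with VTP50469 (difference 4.43, SE 0.23, adjusted p = 4.7e-15). MEIS1 was at 0.675, 2.23 and 1.1 CPM (difference 3.50, SE 0.29, adjusted p = 2.04e-10). IGLL1, a surrogate light chain of immature B cells, was at 6.75, 8.08 and 11.3 CPM with VTP50469 and 82.9, 92.7 and 95.8 CPM with SGC0946 (difference 3.39, SE 0.20, adjusted p = 9.52e-14). These 3 genes thus stood higher with SGC0946 than with VTP50469 by more than the spread between libraries. The HOXA genes did not differ between the drugs past the threshold. HOXA10 was at 26.8, 22.3 and 24.6 CPM (difference −0.04, SE 0.16, adjusted p = 0.936). Of monocyte markers 8 were lower with SGC0946 than with VTP50469 and none higher. CYBB was at 49.5, 39.8 and 45.8 CPM with VTP50469 (difference −2.79, SE 0.20, adjusted p = 1.04e-11). COL6A1, a collagen chain, had no count with DMSO, 31 in the SGC0946 libraries, which is at least 9.96-fold higher than 3 counts over the DMSO group, and 0, 0.279 and 0 CPM with VTP50469. CFD, DTX4 and RRAGD also stood higher with SGC0946, by 0.74, 1.26 and 1.09 on the log2 scale (adjusted p = 1.2e-06, 8.95e-05 and 0.00641). Among rows also called between SGC0946 and DMSO, the 5 furthest below VTP50469 were a Y RNA and 4 known here by their identifier only. One such row was ENSG00000258486, at 41.7, 37.5 and 54.3 CPM with SGC0946 and 442, 405 and 461 CPM with VTP50469.

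In MOLM13 control cells the same dose and time of SGC0946 raised 878 of 12140 genes (7.23%) and lowered 700 (5.77%). This total of 1578 became 1044 without SGC0946 replicate 3, and 505 when only the libraries compared were fitted. The tables were fitted apart and share no libraries. Of 638 genes raised in MV4;11 and tested in both lines 218 (34.2%, and 29.3% of those raised in MOLM13) were also raised in MOLM13, where 7.2% of the genes tested in both lines rose, and 18 (2.82%) were lowered. Of 642 lowered in MV4;11, 182 (28.3%, and 28.1% of those lowered in MOLM13) were lowered there, where 6.25% fell, and 17 (2.65%) were raised. Monocyte markers had like counts in the lines, with 13 of 21 raised in MOLM13 and a median of 1.21. Of the class II genes 3 were tested in MOLM13 and 1 was raised. MLL fusion targets had 21 of 35 lowered, with a median of −0.68, and ATF4 targets 14 of 22, with a median of −0.54. Some genes fell in 1 line far more than in the other, although no test was made across tables. MEIS1 had a log2 fold change of −0.69 in MV4;11 and −2.37 in MOLM13 (adjusted p = 8.23e-09). SOCS2, which did not pass in MV4;11 at −0.19, had −2.37, adjusted p = 1.63e-09 in MOLM13. Lipid synthesis genes were mostly not called there, with 1 of 22 lowered in MOLM13 and a median of −0.10, and FASN was at −0.14, adjusted p = 0.375 there. MPO, which did not pass in MV4;11, rose in MOLM13 (2.20, adjusted p = 6.42e-14). S100A8 rose in both, by 1.89 and 4.86. SERPINB10, a myeloid serine protease inhibitor, read 0.409, 0.491 and 0 CPM in the DMSO libraries and 6.87, 6.89 and 6.88 CPM in the SGC0946 libraries (log2 change 4.41, SE 0.54, adjusted p = 1.23e-06) and had 5.32, adjusted p = 4.44e-11 in MOLM13.

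**Figure D2:**
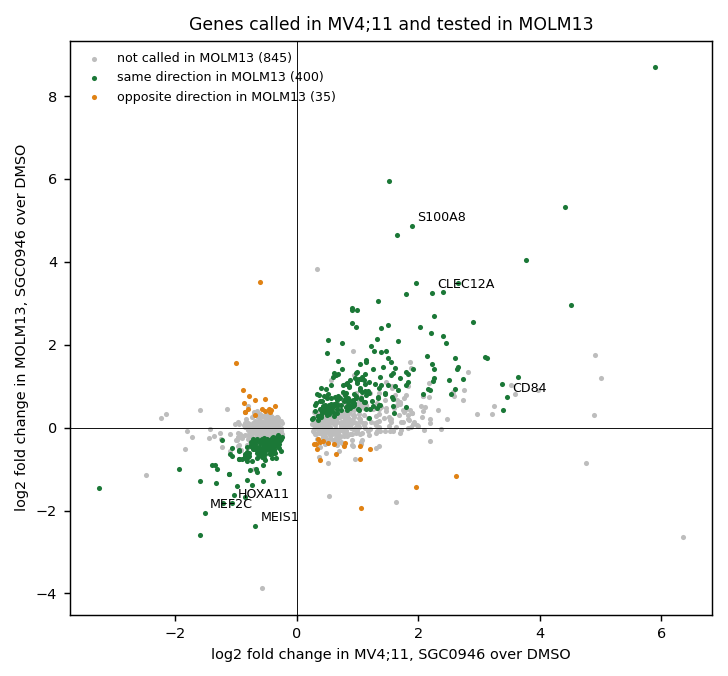
Log2 fold change with SGC0946 in MOLM13 (y axis) against that in MV4;11 (x axis) for the 1280 genes called in MV4;11 and tested in both lines. Green points were called the same way in MOLM13 (400), orange points the other way (35) and grey points were not called there (845); MEIS1 lies lower on the MOLM13 axis than on the MV4;11 axis.

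The response of PCGF1 KO cells was compared with that of control cells for the genes above. The difference passed the threshold for 27 genes, 6 higher (0.0533%) and 21 lower (0.187%) in the knockout, and if the knockout is 1 clone, the loss of PCGF1 and the clone cannot be told apart. PCGF1 in the knockout read 1.88, 1.65 and 5.16 CPM with DMSO, against 4.9, 3.68 and 7.35 CPM in control cells, and a transcript can persist in edited cells. The class II genes were the clearest group. HLA-DRA was at 7.51, 10.8 and 12.4 CPM with DMSO and 10.1, 13 and 12.5 CPM with SGC0946 in the knockout (difference in response −2.54, SE 0.32, adjusted p = 2.41e-05). CD74 was at 156, 126 and 142 CPM and 155, 147 and 176 CPM (difference −1.01, SE 0.15, adjusted p = 0.000261). HLA-DRB1 differed likewise (−2.05, SE 0.29, adjusted p = 0.000134). HLA-DRA, HLA-DRB1, CD74, GPT2 and TCF4 passed in all 12 fits without 1 library. In each of these class II genes all 3 knockout DMSO libraries already lay above the control DMSO libraries. GPT2, which fell in control cells, was at 149.9, 174 and 132 CPM and 178, 172 and 163 CPM in the knockout (difference 1.52, SE 0.16, adjusted p = 5.97e-07). TCF4 was at 279, 262 and 297 CPM and 249.8, 251 and 250.1 CPM (difference −1.22, SE 0.15, adjusted p = 1.91e-05). REEP3 (0.81, SE 0.16, adjusted p = 0.0225) and SLC7A5 (0.71, SE 0.16, adjusted p = 0.0405) had a smaller response in the knockout, but passed in only 6 and 2 of these 12 fits and not with scaling by library size. TCF4 and GPT2 likewise had higher DMSO levels in the knockout than in control cells. For MEF2C (−0.22, SE 0.18, adjusted p = 0.828), HOXA10 (0.02, SE 0.20, adjusted p = 0.994), MEIS1 (0.40, SE 0.22, adjusted p = 0.669) and CLEC12A (−0.76, SE 0.38, adjusted p = 0.629) a difference in response did not pass the threshold, which does not show that the responses were alike. The count of 27 was 77, 43 and 46 when PCGF1 KO DMSO replicates 1, 2 and 3 were left out in turn and 15, 12 and 10 for the PCGF1 KO SGC0946 replicates. Among control libraries it was 13 and 8 for DMSO replicates 2 and 3, and 10 and 15 for SGC0946 replicates 2 and 3.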

How the data were processed

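Per the methods, the authors prepared 3′ RNA-seq libraries, used bbmap for trimming and STAR for alignment to GRCh38, and counted reads per gene; the labels also name a further 3′ kit without saying for which samples. The deposited counts are whole numbers per Ensembl gene, not normalized, with replicates kept apart; strand setting and annotation release are not given in the sources used here. Rows naming no gene were left out of library sizes (21.4% to 26.9% of reads). Of 48 per-sample MV4;11 columns 30 were not used, since no label tells their group.

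A gene was tested if 2 or more libraries reached 2 CPM, by the quasi-likelihood test of edgeR 4.0.16 (R 4.3.3) after TMM scaling and with Benjamini-Hochberg adjustment; it was called at an adjusted p under 0.05. All 18 matched MV4;11 libraries (6 groups, 3 each) entered 1 model without a replicate block; 27 MOLM13 libraries were fitted alone. CPM use TMM-scaled sizes. The calculation was tested on simulated data. The 97.6% of tested genes found in GENCODE 44 took its positions; promoter windows and the printed sequence come from GRCh38 and the start of its canonical transcripts.

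The comparison, the 32 gene lists and the naming rule were chosen with earlier results of these data known. Named are genes the study names, the 12 largest rises and falls of called genes without overlap at 10 CPM or more, the 6 smallest p-values each way at 50 CPM or more, up to 6 members of each list by p, the 5 largest differences each way from VTP50469 among genes also called against DMSO, and up to 6 each way shared with MOLM13. ASNS, CHAC1, ATF3, ATF4, SLC7A11, SREBF2, DDIT3, TRIB3, SQLE and SSBP2 were chosen after their values were seen. Alternatives were DESeq2 1.42.0, its size factors, library size alone, no filter, fewer libraries, a replicate block and the limits of the methods (FDR 0.1, log2 0.5). Same-numbered MV4;11 DMSO and SGC0946 libraries had correlations of their deviations of 0.0196, 0.0439 and 0.000958, so the numbers were not taken to pair them. Some genes and sequences are not reported here.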

Additional observations from a re-analysis of the deposited data

Results flagged for a closer look

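The response to SGC0946 differed between PCGF1 KO and control MV4;11 cells, by the interaction in edgeR's model, for 11 of the genes named above or in a list. Given as the log2 response in the knockout minus that in control cells, the difference was −2.54 for HLA-DRA (adjusted p = 2.41e-05), −2.05 for HLA-DRB1 (0.000134), −1.01 for CD74 (0.000261), −4.46 for HLA-DMA (0.0405) and −1.22 for TCF4 (1.91e-05). It was −1.23 for CCND2 (0.014) and −0.64 for CTSB (0.0348), and 1.52 for GPT2 (5.97e-07), 0.81 for REEP3 (0.0225), 1.85 for EGR1 (0.0338) and 0.71 for SLC7A5 (0.0405). The value for HLA-DMA is fitted on 1 count in the control DMSO libraries and depends on the prior count. HLA-DRA, HLA-DRB1, CD74, TCF4 and GPT2 passed the threshold in each of the 12 fits without 1 library and the 7 other refits. The other 6 did not pass with scaling by library size, and all 11 kept their direction in every fit that gave a p. REEP3 passed in 6 of the 12 fits, and not without replicate 2 or 3 of the PCGF1 KO SGC0946, control DMSO or control SGC0946 libraries (adjusted p = 0.0644 to 0.0902). CCND2 passed in 9, and not without PCGF1 KO SGC0946 replicate 3, control DMSO replicate 3 or control SGC0946 replicate 2 (0.0541 to 0.0902). EGR1 passed in 3, those without PCGF1 KO DMSO replicate 1 or 3 or PCGF1 KO SGC0946 replicate 2 (0.0513 to 0.167 in the rest). CTSB passed in 3, those without PCGF1 KO DMSO replicate 1 or 3 or control SGC0946 replicate 2 (0.0575 to 0.165 in the rest). HLA-DMA passed in 2, those without PCGF1 KO DMSO replicate 1 or 2 (0.0545 to 0.168 in the rest), and SLC7A5 in 2, those without PCGF1 KO DMSO replicate 1 or 3 (0.0703 to 0.143 in the rest). In control cells each of these genes was called, and in the knockout the response ranged from −0.52 for REEP3 to 0.22 for HLA-DRA.

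Called the opposite way in MV4;11 and MOLM13, without a test of that difference, were NCAM2 (log2 fold change 1.96 in MV4;11 and −1.43 in MOLM13), ENPP2 (2.63 and −1.18), ANXA2R (1.06 and −1.95) and TRGC1 (−0.998 and 1.55). ANXA2R was not called without DMSO replicate 1 (adjusted p = 0.0655) or SGC0946 replicate 1 (0.117).

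Reads that name no gene, which no comparison used, took 23.4% of the reads in the SGC0946 library with the lowest share, above 22% in the DMSO library with the highest; what these reads are was not tested. Groups of 3 libraries are too small for the test for single outlying samples.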

How the results depend on the processing

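The 1373 genes called in the first comparison stayed within 1.5 times under DESeq2's size factors (1366), DESeq2's own test (1193), no filter (1216), without the abundant non-coding rows (1325), with only the libraries compared (2058) and with the limits of the methods (1140, of which 67.9% were higher). Scaling by library size gave 717, of which 84.2% were higher against 52.6% with TMM, and it gave 5332 in place of 584 between SGC0946 and VTP50469. The 27 differences in response between PCGF1 KO and control cells became 50 with the limits of the methods, 9 with library size, 45 without the filter and 13 with only the libraries compared, and the 1578 MOLM13 calls became 505 with only the libraries compared; the cause was not tested. Without 1 library the counts ranged from 819 to 984 in the first comparison, 403 to 447 against VTP50469, 8 to 77 for the differences in response and 1044 to 1686 in MOLM13. The 139 calls among list members ranged from 102 to 113 without 1 library and were 93 with library size. The numbers were not taken to pair the libraries in MV4;11, nor in MOLM13, where same-numbered DMSO and SGC0946 libraries had correlations of 0.00174, 0.143 and 0.147 and not every library went best with its own number; with the replicate number as a block the counts were 1349, 594, 26 and 1932, in the order above. Of 211 named genes none changed direction in a refit where it was called there or in the main fit. Changes of direction in genes called in neither fit were not counted. A value was given for 197 of the named genes with only the libraries compared and for 207 without the abundant rows. With library size 32 lost their call, and 42 did so in at least 1 of the fits without 1 library, where an arm was left with 2 libraries. At 4104648 to 4792045 counts per library, levels under 0.574 to 0.737 CPM cannot be told from 0.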
